A study of Mus musculus with 2 samples.

Results

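Imprinted genes are expressed mainly from the copy inherited from 1 parent. A list of 40 such mouse genes was matched by symbol to the deposited gene tables of the adrenal gland, and 39 of them had a row among the 43346 Ensembl genes of the tables. Peg13 was not matched and is not analysed here. The 39 genes fall into 17 imprinted domains or single loci, and they were taken from the list whatever their level. The tables hold no information on alleles, so every value below is the sum over both parental copies.

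The tissue was adrenal gland of a 10-week-old adult female of the inbred mouse strain C57BL/6J, with no treatment, transgene or mutation named in the labels. Polyadenylated RNA of this 1 biological sample was sequenced as 2 technical replicate libraries, called replicate 2 and replicate 1, of which replicate 2 was made later. Library and date cannot be told apart, and no error here covers differences between animals.

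Imprinting is set in the germ line as DNA methylation of a control region that differs between egg and sperm, and it is kept after fertilisation by factors such as ZFP57 with TRIM28 and DNMT1. The control region then acts on its neighbours through an insulator bound by CTCF, as between H19 and Igf2, or through a long noncoding RNA that silences genes on the same chromosome, as Airn and Kcnq1ot1 do. Paternally expressed members often promote prenatal growth (Igf2, Peg3, Mest, Dlk1) and maternally expressed ones often restrain it (Cdkn1c, Igf2r, Grb10, Phlda2). Many imprinted genes are high before birth and fall afterwards. In the adrenal, human CDKN1C mutations cause a syndrome with adrenal hypoplasia, and Dlk1 is known as a protein of the outer cortex in rats.

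Expression is given in TPM, a level per transcript length whose sum over all genes is fixed in a library. The expected counts, rounded per gene, came to 17376660 in replicate 2 and 28267651 in replicate 1. Genes of the mitochondrial genome took 10.6% of counts in replicate 2 and 40.1% in replicate 1, and nuclear genes other than copies of mitochondrial ones held 61.6% of summed TPM in replicate 2 and 17.5% in replicate 1. Outside mitochondrial genes and their nuclear copies, 14716667 counts remained in replicate 2 and 13260900 in replicate 1. TPM therefore orders genes within a library, and ratios between the libraries were taken from scaled counts. In TPM, 35 of the 39 members were higher in replicate 2, but after rescaling over nuclear genes 14 were, and 21 members were higher in replicate 2 in TPM and lower in rescaled TPM. Defining cortex markers were abundant in both libraries, with a summed TPM of 26210 in replicate 2 and 6963 in replicate 1 for Star, Cyp11a1, Cyp11b1, Hsd3b1 and Nr5a1.

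The promoter windows of 5 members are printed to show what the CG counts given further on refer to. They are Igf2, the growth factor of the list, and the 4 members with the highest mean TPM among those with an entry in the sequence table, namely Rian, Dlk1, Meg3 and Ndn. Each line is the sense strand from 250 bases before to 50 after a RefSeq start on GRCm38.p6, 5′ to 3′, with every CG dinucleotide, the site of DNA methylation, in capitals.
Igf2 (chr7:142657447-142657746, minus strand): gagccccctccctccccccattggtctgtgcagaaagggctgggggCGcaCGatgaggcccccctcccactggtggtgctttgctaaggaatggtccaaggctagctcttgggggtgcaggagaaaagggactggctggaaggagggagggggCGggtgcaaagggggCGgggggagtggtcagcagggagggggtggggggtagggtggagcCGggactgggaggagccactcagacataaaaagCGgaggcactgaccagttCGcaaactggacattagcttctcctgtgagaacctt
Dlk1 (chr12:109452573-109452872, plus strand): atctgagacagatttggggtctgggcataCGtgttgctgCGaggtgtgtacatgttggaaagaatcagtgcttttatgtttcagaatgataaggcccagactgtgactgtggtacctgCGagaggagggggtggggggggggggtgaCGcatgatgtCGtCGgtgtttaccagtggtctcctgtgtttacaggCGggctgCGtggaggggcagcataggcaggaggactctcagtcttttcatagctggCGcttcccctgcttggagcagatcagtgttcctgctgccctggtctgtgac
Meg3 (chr12:109540746-109541045, plus strand): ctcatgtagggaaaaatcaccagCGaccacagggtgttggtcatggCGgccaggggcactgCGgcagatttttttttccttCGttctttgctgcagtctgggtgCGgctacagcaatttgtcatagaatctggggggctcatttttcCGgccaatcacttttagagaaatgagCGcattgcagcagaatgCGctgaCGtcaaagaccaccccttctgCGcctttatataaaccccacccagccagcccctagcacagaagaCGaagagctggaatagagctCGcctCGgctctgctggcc
Rian (chr12:109603695-109603994, plus strand): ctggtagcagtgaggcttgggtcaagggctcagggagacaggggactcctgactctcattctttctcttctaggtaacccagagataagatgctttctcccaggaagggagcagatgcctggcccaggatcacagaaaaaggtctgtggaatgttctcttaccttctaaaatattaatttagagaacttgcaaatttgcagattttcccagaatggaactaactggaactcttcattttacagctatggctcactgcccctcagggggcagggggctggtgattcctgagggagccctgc
Ndn (chr7:62348027-62348326, plus strand): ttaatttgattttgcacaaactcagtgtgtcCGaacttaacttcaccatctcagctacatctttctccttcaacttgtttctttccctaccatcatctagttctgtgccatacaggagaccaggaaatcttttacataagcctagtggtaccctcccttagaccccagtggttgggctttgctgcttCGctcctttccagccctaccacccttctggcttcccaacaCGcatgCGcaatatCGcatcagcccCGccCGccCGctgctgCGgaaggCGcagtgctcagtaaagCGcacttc

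The Rian window held 0 CG dinucleotides, the Igf2 window 7, the Dlk1 window 9, the Ndn window 11 and the Meg3 window 13. The Meg3 and Igf2 windows lay at the start of the transcript that was most abundant in these libraries, at a distance of 5 and 0 bases. The other windows lay 832 bases from the leading start in GENCODE M21 for Dlk1, 1708 for Ndn and 42196 for Rian. The Rian window therefore shows a start far upstream of the transcripts measured here. For Ndn the counted transcript is 1652 bases long and the M21 gene spans bases 62346569 to 62350262. The distance of the Ndn window from the start of the counted transcript is therefore uncertain.

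Most imprinted genes were transcribed in the adult adrenal, and a few of them at high levels. In replicate 2, 33 of the 39 members reached 1 TPM, 20 reached 10 TPM and 5 reached 100 TPM. In replicate 1 the same minima were met by 24, 13 and 3 members. All 24 members at or above 1 TPM in replicate 1 were also above it in replicate 2, another 9 reached it in replicate 2 alone and 6 were under it in both. The median over the 39 members was 12.9 TPM in replicate 2 and 4.03 TPM in replicate 1. Among all protein-coding nuclear genes, 58.9% reached 1 TPM in replicate 2 and 41.0% in replicate 1. Together the members took 0.405% of nuclear counts in replicate 2, with a 95% exact binomial interval of 0.402 to 0.408%, against 0.579% in replicate 1, with an interval of 0.575 to 0.583%; both intervals cover counting error only. In whole tissue, fewer cells of a type and less RNA per cell cannot be told apart.

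**Figure D1:**
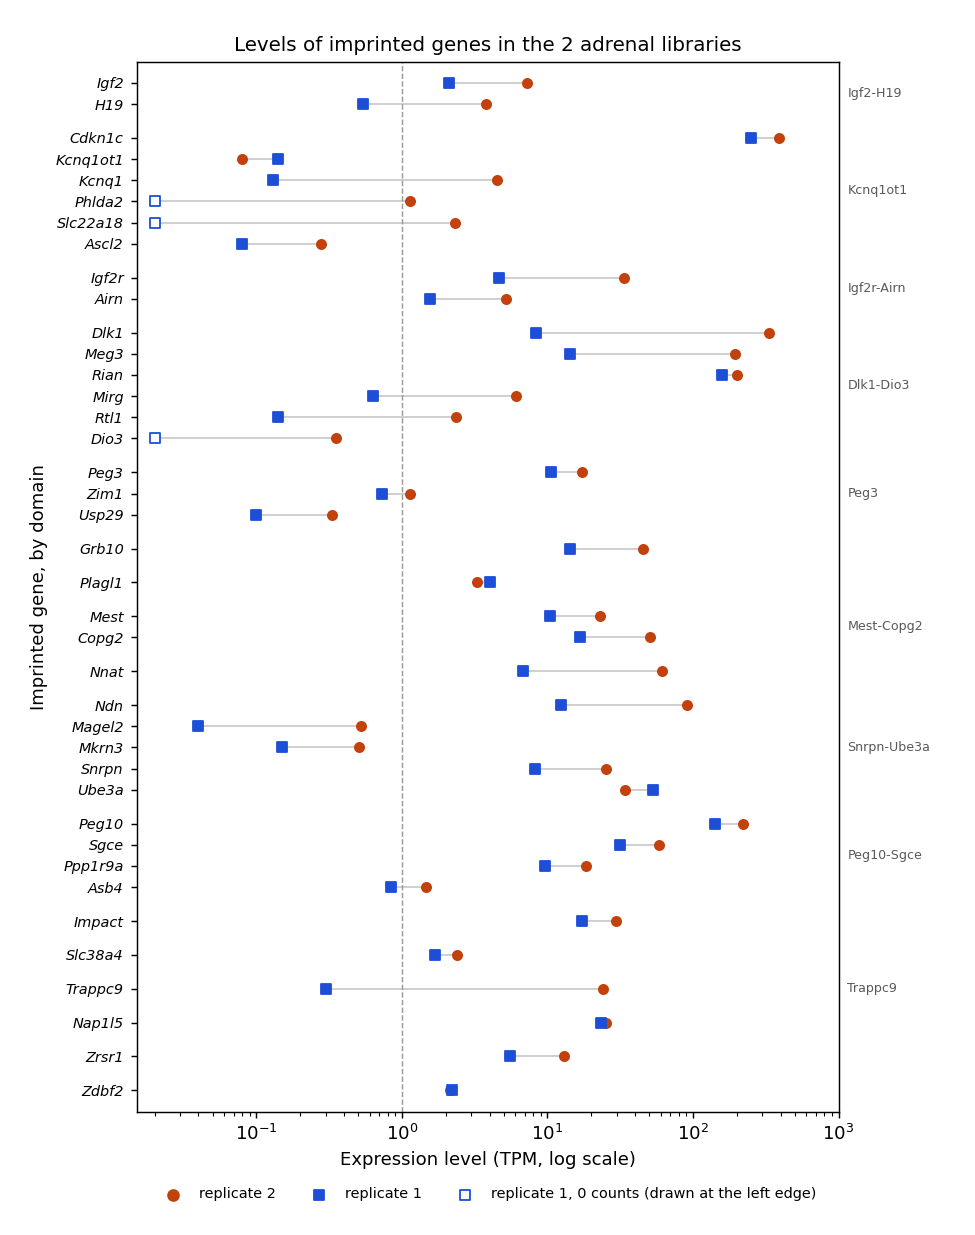
Expression level of each of the 39 imprinted genes in TPM on a log axis, grouped by domain, with circles for replicate 2 and squares for replicate 1 of the same adrenal sample. Open squares at the left edge are genes with 0 counts in replicate 1, and the dashed line marks 1 TPM. Cdkn1c, Peg10 and Rian are above 100 TPM in both libraries, whereas Dlk1 stands at 332.5 TPM in replicate 2 and 8.34 TPM in replicate 1.

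The summed level was concentrated in few genes. The 5 highest members held 69.2% of the members' summed TPM in replicate 2 and 78.1% in replicate 1. Cdkn1c was the highest in each. It was followed by Dlk1, Peg10, Rian and Meg3 in replicate 2, and by Rian, Peg10, Ube3a and Sgce in replicate 1. By the parent listed for the expressed copy, whatever the tissue, the 14 maternally expressed members summed to 909.4 TPM in replicate 2 and 456.2 TPM in replicate 1. The 22 paternally expressed members summed to 921.4 TPM in replicate 2 and 289.2 TPM in replicate 1. Grb10, Ube3a and Trappc9, which were listed apart because their imprinting depends on the tissue, added 103.5 TPM in replicate 2 and 67.5 TPM in replicate 1. Whether any member was imprinted in the adrenal was not measured. Rescaled over nuclear genes, the order of the libraries turned: the maternally expressed members summed to 1475 TPM in replicate 2 and 2608 TPM in replicate 1, and the paternally expressed ones to 1495 TPM in replicate 2 and 1653 TPM in replicate 1.

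The Kcnq1ot1 domain of distal chromosome 7 was led by Cdkn1c, which encodes the cyclin-dependent kinase inhibitor p57. Cdkn1c (ENSMUSG00000037664, chromosome 7 from 143458339 to 143461050 on the minus strand) stood at 389.8 TPM in replicate 2 and 248.6 TPM in replicate 1, a mean of 319.2 ± 99.9 TPM (SD, n = 2 technical libraries). It ranked 221 among all nuclear genes in replicate 2 and 69 in replicate 1. Cdkn1c was thus in the upper part of the adrenal transcriptome in both libraries. The other 5 listed genes of the domain were under 10 TPM in both libraries.

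Kcnq1ot1, the long paternally expressed antisense RNA that silences the domain, stood at 0.080 TPM in replicate 2 and 0.14 TPM in replicate 1, spread over an annotated length of 84395 bases. Its counts were 83 in replicate 2 and 378 in replicate 1, so it was detected in both. Kcnq1, a potassium channel subunit, stood at 4.53 TPM in replicate 2 and 0.13 TPM in replicate 1, on 106 and 11 counts. The genes overlap on opposite strands by 121 exon bases, and whether counting used strand is not stated, so reads in that stretch cannot be assigned. Slc22a18, a membrane transporter, had 33 counts (2.30 TPM) in replicate 2 and 0 counts in replicate 1, where 3 counts would be 0.100 TPM. Phlda2, which limits placental growth, had 8 counts (1.13 TPM) in replicate 2 and 0 counts in replicate 1, where 3 counts would be 0.159 TPM. Ascl2, a transcription factor of the placenta, was at 5 counts in replicate 2 and 4 in replicate 1. The 3 genes were therefore near the limit of detection in at least 1 library.

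In the neighbouring Igf2-H19 domain, the ligand was low. Igf2 (chromosome 7 from 142650766 to 142666816, minus strand) stood at 7.25 TPM in replicate 2 and 2.09 TPM in replicate 1. Its counts were 265 in replicate 2 and 250 in replicate 1, and rescaled over nuclear genes it stood at 11.8 TPM in replicate 2 and 11.95 TPM in replicate 1. H19, the maternally expressed noncoding RNA of the same domain, stood at 3.78 TPM in replicate 2 and 0.54 TPM in replicate 1, on 97 and 14 counts. The level of Igf2 was 1.92 times that of H19 in replicate 2 and 3.87 times in replicate 1, so the ligand was the higher of the pair in both.

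Igf2r, the maternally expressed receptor that carries IGF2 to lysosomes, exceeded its ligand. It stood at 33.7 TPM in replicate 2 and 4.66 TPM in replicate 1, which was 4.65 times the level of Igf2 in replicate 2 and 2.23 times in replicate 1. Airn, the paternally expressed antisense RNA whose transcription silences Igf2r, stood at 5.15 TPM in replicate 2 and 1.57 TPM in replicate 1, on 45 and 34 counts. Both genes of this domain of chromosome 17 were above 1 TPM in both libraries, with Igf2r above Airn in each. Grb10, an adaptor that restrains insulin and IGF receptor signalling, stood at 45.4 TPM in replicate 2 and 14.4 TPM in replicate 1.

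The Dlk1-Dio3 domain of chromosome 12 had the highest summed level of the multi-gene domains in replicate 2. Its 6 members summed to 737.6 TPM in replicate 2 and 182.7 TPM in replicate 1. The gene in the lead differed. Dlk1 (chromosome 12 from 109452823 to 109463336, plus strand), a Delta-like membrane protein, stood at 332.5 TPM in replicate 2 and 8.34 TPM in replicate 1. Rian, the host RNA of small nucleolar RNAs, stood at 201.9 TPM in replicate 2 and 159.2 TPM in replicate 1, or 327.6 and 910.0 TPM rescaled over nuclear genes. Meg3, the maternally expressed RNA that starts the noncoding cluster, stood at 194.4 TPM in replicate 2 and 14.4 TPM in replicate 1. Dlk1 led in replicate 2 and Rian in replicate 1. On counts, Dlk1 had 6675 in replicate 2 and 1010 in replicate 1, and Meg3 had 4352 in replicate 2 and 2569 in replicate 1.

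The rest of the Dlk1-Dio3 domain was much lower. Mirg, the host RNA of a large miRNA cluster with 14 RefSeq hairpins inside its span on the same strand, stood at 6.06 TPM in replicate 2 and 0.63 TPM in replicate 1. Rtl1, a retrotransposon-derived gene whose opposite strand carries 6 hairpins, stood at 2.36 TPM in replicate 2 and 0.14 TPM in replicate 1. Dio3, the enzyme that inactivates thyroid hormone, had 8 counts (0.35 TPM) in replicate 2 and 0 counts in replicate 1, where 3 counts would be 0.058 TPM. In TPM the 3 maternally expressed noncoding RNAs kept 1 order in both libraries, Rian, then Meg3, then Mirg. The level of Meg3 was 0.963 times that of Rian in replicate 2 and 0.090 times in replicate 1. In replicate 2 the deposited intervals of Rian, 184.5 to 206.5 TPM, and Meg3, 173.4 to 192.3 TPM, overlapped. Their order there is therefore uncertain. Hairpin rows that overlap the host RNAs were at 0 in both libraries of polyadenylated RNA, which are not made to hold short RNAs.

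In the Peg10-Sgce domain of proximal chromosome 6, the retrotransposon-derived Peg10 was the second highest of the 39 members by mean level. Peg10 (chromosome 6 from 4747306 to 4760517, plus strand) stood at 220.6 TPM in replicate 2 and 142.7 TPM in replicate 1, or 357.9 and 816.0 TPM rescaled over nuclear genes. It had the largest count of all members, with 13294 in replicate 2 and 23287 in replicate 1. Sgce, the epsilon-sarcoglycan gene that shares its promoter region with Peg10 and is also paternally expressed, stood at 58.8 TPM in replicate 2 and 31.7 TPM in replicate 1. Peg10 was 3.75 times the level of Sgce in replicate 2 and 4.51 times in replicate 1, one of the closest agreements between the libraries. Ppp1r9a, which encodes the actin-binding protein neurabin, stood at 18.5 TPM in replicate 2 and 9.59 TPM in replicate 1, at 0.315 and 0.303 times Sgce. Asb4, a SOCS box protein, was at 1.47 TPM in replicate 2 and 0.84 TPM in replicate 1.

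In the Snrpn-Ube3a domain of chromosome 7, 3 of 5 members were above 1 TPM in both libraries. Ndn, a MAGE family protein that limits proliferation, stood at 90.5 TPM in replicate 2 and 12.3 TPM in replicate 1. Ube3a, a ubiquitin ligase whose imprinting is known from neurons, stood at 34.0 TPM in replicate 2 and 52.8 TPM in replicate 1. It shares 1803 exon bases with Snhg14 on the opposite strand, and reads there cannot be assigned without strand. Snhg14 was at 1.84 TPM in replicate 2 and 2.34 TPM in replicate 1. Snrpn, which encodes a splicing protein, stood at 25.4 TPM in replicate 2 and 8.16 TPM in replicate 1. Ndn led in replicate 2 and Ube3a in replicate 1. Snrpn shares 216 exon bases with Snurf on the same strand, and Snurf was at 13.4 TPM in replicate 2 and listed at 0 in replicate 1, so these genes could trade reads. Magel2, another MAGE family gene, had 29 counts (0.52 TPM) in replicate 2 and 6 counts (0.040 TPM) in replicate 1. Mkrn3, a ring finger gene, had 15 counts (0.51 TPM) in replicate 2 and 12 counts (0.15 TPM) in replicate 1. Both were under 1 TPM in each library, with Ndn 174 times the level of Magel2 in replicate 2 and 307 times in replicate 1.

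Peg3, a paternally expressed zinc finger gene with a growth role, led its domain at 17.3 TPM in replicate 2 and 10.5 TPM in replicate 1. Zim1, its maternally expressed neighbour, stood at 1.13 TPM in replicate 2 and 0.73 TPM in replicate 1. Their ratio was almost the same, with Peg3 at 15.3 times Zim1 in replicate 2 and 14.4 times in replicate 1. Usp29, a deubiquitinase gene with a RefSeq start beside Peg3, had 10 counts (0.33 TPM) in replicate 2 and 8 counts (0.10 TPM) in replicate 1. The only Usp29 transcript counted here, Usp29-201, starts 230577 bases from that RefSeq start in GENCODE M21.

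Copg2, a coatomer subunit, stood at 50.4 TPM in replicate 2 and 16.8 TPM in replicate 1. Mest, a paternally expressed gene of the hydrolase fold, stood at 23.1 TPM in replicate 2 and 10.45 TPM in replicate 1. Copg2 was the higher of the pair in both, but the genes overlap on opposite strands by 912 exon bases, which is 23.1% of the exon bases of Mest, and reads there cannot be assigned without strand. Nnat, a paternally expressed proteolipid gene, stood at 61.1 TPM in replicate 2 and 6.74 TPM in replicate 1. Nap1l5, a nucleosome assembly family gene, stood at 25.2 TPM in replicate 2 and 23.4 TPM in replicate 1. Impact, a regulator of translation through Gcn2, stood at 29.6 TPM in replicate 2 and 17.2 TPM in replicate 1. These 3 single loci were all above 1 TPM in both libraries.

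Trappc9, a vesicle trafficking subunit that is the host locus of Peg13, showed the widest gap among members with counts in both libraries. It had 1104 counts (24.2 TPM) in replicate 2 and 36 counts (0.30 TPM) in replicate 1. Zrsr1, a splicing factor retrogene in an intron of Commd1, stood at 12.9 TPM in replicate 2 and 5.49 TPM in replicate 1. It shares 412 exon bases with Commd1 on the opposite strand, which was at 85.5 TPM in replicate 2 and 12.5 TPM in replicate 1. Plagl1, a zinc finger transcription factor, Slc38a4, an amino acid transporter, and Zdbf2, a zinc finger gene, lay between 2.15 and 3.30 TPM in replicate 2 and between 1.69 and 4.03 TPM in replicate 1.

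Ratios within a library do not depend on how the libraries are scaled. Of 16 pairs of neighbouring or functionally linked members, 14 had both genes above 3 counts in both libraries. In 12 of the 14 the same gene was the higher one in both libraries. Among these, Meg3 and Rian were close to a tie in replicate 2, at a ratio of 0.963. The order turned for Meg3 over Dlk1, at 0.585 in replicate 2 and 1.72 in replicate 1, and for Kcnq1ot1 over Kcnq1, at 0.018 in replicate 2 and 1.08 in replicate 1. The second turn was seen in TPM alone, since with posterior mean TPM the log2 ratio of Kcnq1ot1 to Kcnq1 was -7.33 in replicate 2 and -4.51 in replicate 1. The 0.13 TPM of Kcnq1 in replicate 1 lies below the deposited interval of 0.588 to 6.10 TPM. Other members, including several of the highest, also lay outside their deposited intervals. Plagl1 was below in both libraries, at 3.30 TPM against 7.41 to 14.15 in replicate 2 and 4.03 against 5.35 to 7.78 in replicate 1. Cdkn1c was above in both, at 389.8 TPM against 355.1 to 370.7 in replicate 2 and 248.6 against 237.6 to 245.7 in replicate 1. Peg10 was also above in both libraries, and Dlk1, Meg3 and Ndn were above in replicate 2. The pairs with the closest ratios (Peg3 with Zim1, Ppp1r9a with Sgce, Peg10 with Sgce) differ by at most 2.97 percentage points in the GC content of their transcripts. The pair with the widest gap, Kcnq1ot1 at 40.3% and Kcnq1 at 56.2% GC, differs by 15.9 points. Igf2 and H19 differ by only 0.59 points in GC content, yet their level ratio of 1.92 in replicate 2 and 3.87 in replicate 1 was not among the closest. Meg3 and Dlk1 differ by 3.06 points, yet their order turned. Ndn and Magel2 differ by 13.1 points, but their log2 ratio was 7.44 in replicate 2 and 8.26 in replicate 1. Those 2 values lie closer together than the log2 ratios of Igf2 to H19, 0.94 in replicate 2 and 1.95 in replicate 1.

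**Figure D2:**
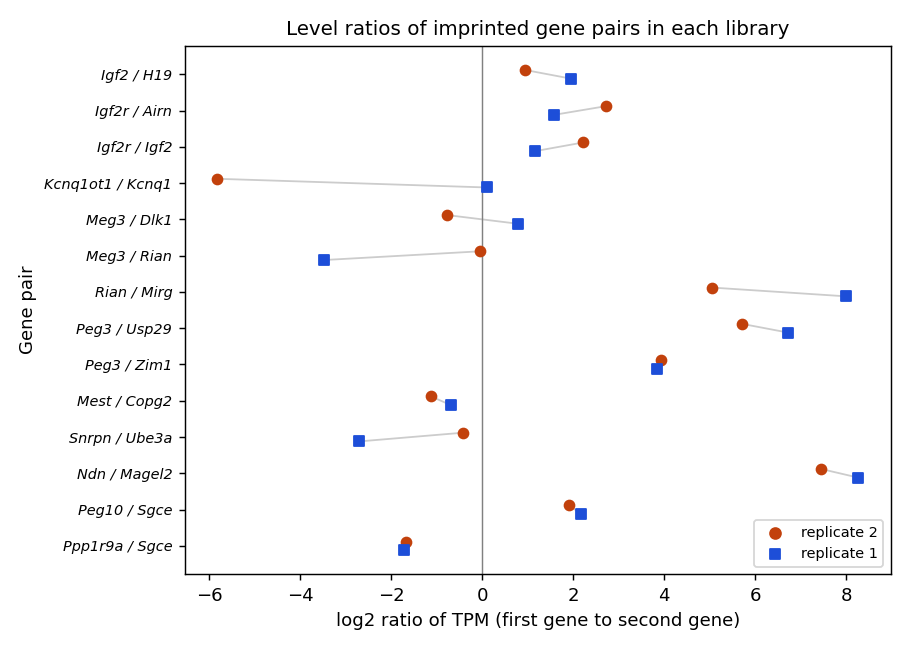
Log2 ratio of the TPM of the first to the second gene of 14 pairs of imprinted genes, with circles for replicate 2 and squares for replicate 1. Values right of 0 mean that the first gene was higher. Meg3 over Dlk1 and Kcnq1ot1 over Kcnq1 lie on opposite sides of 0 in the 2 libraries, and the other 12 pairs lie on 1 side.

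The libraries were then compared gene by gene. A gene was called where a two-sided exact binomial test on scaled counts passed an adjusted p of 0.05 over all 14358 genes tested and the fold was at least 2. This test compares these libraries, not conditions or animals. Of the 35 members with at least 20 summed counts, 11 were higher in replicate 2, where 36.4% of all tested genes were called so, and 14 were lower, where 27.8% of all tested genes were. The remaining 10 were not called and had log2 ratios between -0.80 (Mest) and 0.33 (Meg3). Of these, 8 passed the adjusted p and missed only the fold minimum, and Airn and Mkrn3 missed both. The median log2 ratio of replicate 2 to replicate 1 was -0.46 over the members and 0.10 over all tested genes. With library totals as the scale, which moves every gene alike, these medians were 0.68 and 1.24. The order-statistic interval of the median of -0.46 was -1.10 to 0.33. It is an interval for the median and not the range of the members, whose log2 ratios ran from -2.61 (Kcnq1ot1) to 5.63 (Slc22a18). The interval treats genes of a shared domain as independent, and covers no difference between libraries or animals.

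The calls followed GC content. Across all genes the log2 ratio rose with the GC content of the transcripts (Pearson r = 0.826, Spearman rho = 0.884 over 14274 genes of the same 2 libraries), and the members showed the same (r = 0.708, rho = 0.720 over 35 genes). Among the 14 tested members with a GC content of at least 50%, 10 were higher in replicate 2 and 2 were lower. Among the 21 members below 50%, 1 was higher and 12 were lower. These correlations describe 2 libraries and have no replicate behind them. The part of GC content in any single ratio was not tested.

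**Figure D3:**
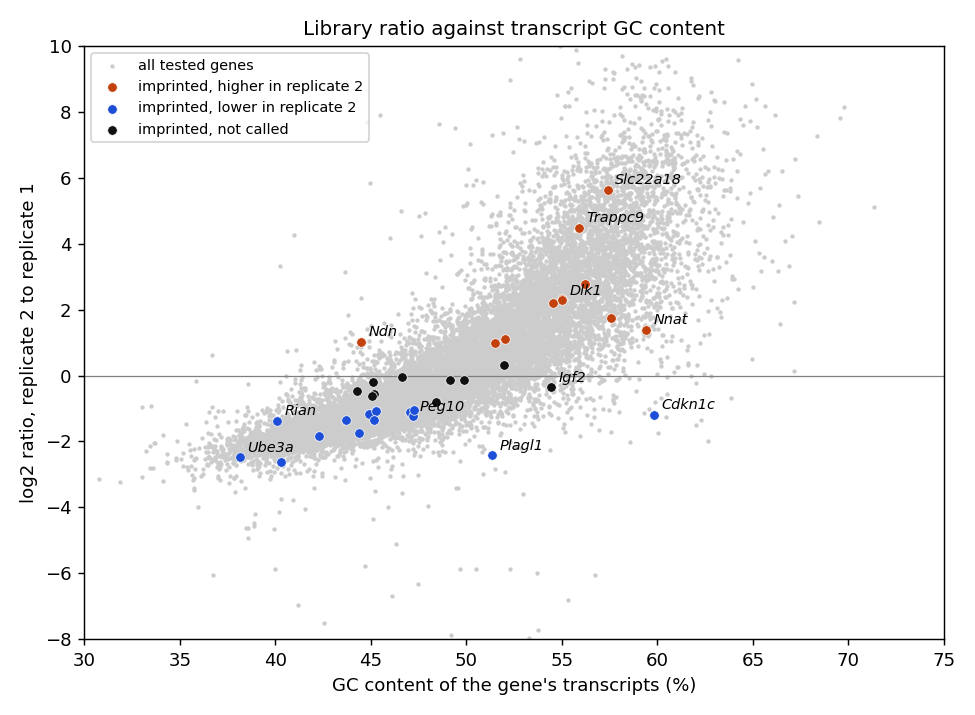
Log2 ratio of replicate 2 to replicate 1 on scaled counts against the GC content of a gene's transcripts in percent, for all tested genes (grey) and the 35 tested imprinted genes (coloured by call). A few genes lie outside the axes. Cdkn1c, at 59.8% GC and a log2 ratio of -1.19, lies far below genes of like GC content, and Ndn, at 44.5% GC and 1.03, lies above them.

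After the trend with GC content was removed, 2 members were higher in replicate 2, where 13.5% of all tested genes were called so, and 5 were lower, where 12.7% of all tested genes were. The members' median log2 ratio was then -0.11 and that of all genes -0.03. Only 4 of the 25 earlier calls held in the same direction, those of Cdkn1c, Plagl1, Ndn and Trappc9. Nnat and Magel2 turned from higher to lower, and Igf2 was newly called.

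Cdkn1c was the member farthest from the GC trend. It had 8315 counts in replicate 2 and 14078 in replicate 1, and rescaled over nuclear genes it stood at 632.4 TPM in replicate 2 and 1421 TPM in replicate 1. On scaled counts it was 0.437 times as high in replicate 2 (95% exact interval 0.426 to 0.449). Of 581 other tested genes within 1 percentage point of its GC content, 0.344% had a lower ratio, and their median log2 ratio was 4.68 against -1.19 for Cdkn1c. With the trend removed its log2 ratio was -5.71. With library totals as the scale, which raises every log2 ratio by the same amount, its log2 ratio was -0.06 and the call ended.

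Plagl1 had 161 counts in replicate 2 and 639 in replicate 1, a log2 ratio of -2.42 that was -3.15 with the GC trend removed. Of 1473 genes of like GC content, 0.339% had a lower ratio. Igf2 had nearly equal counts in the libraries, with a log2 ratio of -0.35 that was -2.43 with the trend removed. Of 1578 genes of like GC content, 3.55% had a lower ratio than Igf2. Cdkn1c, Plagl1 and Igf2 were thus lower in replicate 2 than most genes of their GC content.

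Nnat and Magel2 changed direction with the trend. Nnat had 749 counts in replicate 2 and 212 in replicate 1, a log2 ratio of 1.38 that was -2.97 with the trend removed, and 5.25% of 667 genes of like GC content had a lower ratio. Magel2, on its 29 and 6 counts, had a log2 ratio of 1.75 that was -1.85 with the trend removed, and 14.2% of 1121 genes of like GC content had a lower ratio.

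Ndn lay on the other side. It had 1652 counts in replicate 2 and 598 in replicate 1, a ratio of 2.05 (95% exact interval 1.86 to 2.25). Its GC content in GENCODE M21 was 44.5%. The counted Ndn transcript is 1652 bases long, whereas the M21 gene spans bases 62346569 to 62350262. The GC content of the counted sequence may therefore differ. Of 1464 genes of like GC content in M21, 99.1% had a lower ratio than Ndn. The log2 ratio of Ndn, 1.03, was 2.19 with the trend removed, and both values rest on the M21 GC content. The call without removal sits at the fold minimum and ended with DESeq2 size factors, where the log2 ratio was 0.97. It also ended with the length trend removed, where the log2 ratio was 0.20. Trappc9 was 22.7 times as high in replicate 2 (16.3 to 32.6), a log2 ratio of 4.49 that was 1.67 with the trend removed.

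Dlk1 lay on the trend. It was 4.89 times as high in replicate 2 on scaled counts (4.58 to 5.23), and 48.0% of 1507 genes of like GC content had a lower ratio. With the trend removed its log2 ratio was -0.07, against 2.29 before. Meg3 was 1.25 times as high in replicate 2 (1.19 to 1.32) and was not called. Rian, at 40.1% GC, was 0.388 times as high in replicate 2 (0.372 to 0.405), and its log2 ratio of -1.36 became 0.53. The differing leads of the Dlk1-Dio3 domain in the libraries therefore go with a difference in GC content between Dlk1 at 55.0% and Rian at 40.1%, whose part was not tested.

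**Figure D4:**
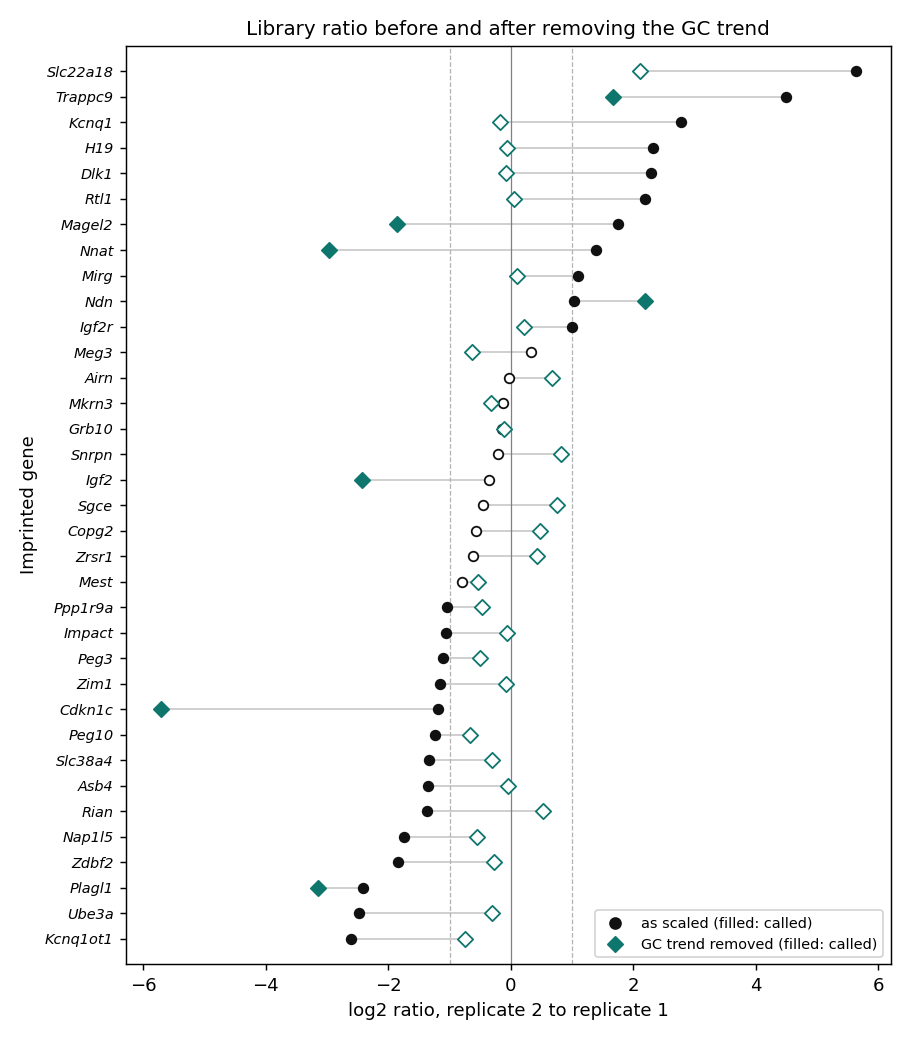
Log2 ratio of replicate 2 to replicate 1 for the 35 tested imprinted genes on scaled counts (circles) and after removal of the GC trend (diamonds), with filled symbols for called genes and dashed lines at the 2-fold minimum. After removal, 28 genes are not called, Ndn and Trappc9 are called higher, and Cdkn1c, Plagl1, Nnat, Igf2 and Magel2 are called lower.

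The other members called higher before removal were Slc22a18, Kcnq1, H19, Rtl1, Mirg and Igf2r. Slc22a18, with 0 counts in replicate 1, was at least 8.15-fold higher in replicate 2, taking 3 counts in replicate 1 as the floor. H19 was 5.13 times as high (2.92 to 9.73) and Kcnq1 7.14 times (3.83 to 14.7), with log2 ratios of -0.06 and -0.18 once the trend was removed. Igf2r, at 2.00 times (1.88 to 2.13), met the fold minimum by a margin so small that DESeq2 size factors, with a log2 ratio of 0.95, ended the call. None of these 6 was called with the GC trend removed.

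The members called lower before removal, besides Cdkn1c and Plagl1, were Kcnq1ot1, Rian, Peg3, Zim1, Ube3a, Peg10, Ppp1r9a, Asb4, Impact, Slc38a4, Nap1l5 and Zdbf2. Their transcripts had a GC content between 38.2% (Ube3a) and 47.3% (Ppp1r9a). Ube3a was 0.179 times as high in replicate 2 (0.170 to 0.188), and Peg10 was 0.423 times as high (0.414 to 0.432). All 12 calls ended with the GC trend removed. With library totals as the scale, the log2 ratios of Peg10, at -0.11, and Rian, at -0.23, no longer met the fold minimum, and those of Peg3, Ppp1r9a and Impact turned to 0.03, 0.10 and 0.07.

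Transcript shares, the percent of a gene's level assigned to each annotated transcript, are estimates from reads that transcripts share. Of 26 members with more than 1 transcript and shares in both libraries, 18 had the same leading transcript in both and 8 did not. The leading transcript was the same for Cdkn1c, where Cdkn1c-201 took 83.9% in replicate 2 and 99.3% in replicate 1. Igf2-201, which starts at the window printed above, took 65.7% in replicate 2 and 92.7% in replicate 1. Igf2r-201 took 99.5% in replicate 2 and 100% in replicate 1.

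Dlk1 was assigned to different transcripts. Dlk1-205, a transcript of 1703 bases, took 70.8% in replicate 2 and 1.64% in replicate 1. Dlk1-208, of 3914 bases, took 8.25% in replicate 2 and 96.7% in replicate 1. Grb10-201 took 82.5% in replicate 2 and 14.1% in replicate 1, whereas Grb10-203, whose start lies 9430 bases away inside the gene, took 13.6% and 83.2%. Nnat-202 took 66.6% in replicate 2 and 0% in replicate 1, and Nnat-210 took 0% in replicate 2 and 100% in replicate 1. Sgce-205 took 84.4% in replicate 2 and 29.2% in replicate 1, whereas the noncoding Sgce-210 took 0.49% and 59.1%. Since TPM is a level per length, a gene assigned to a longer transcript is given a lower TPM from the same reads.

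**Figure D5:**
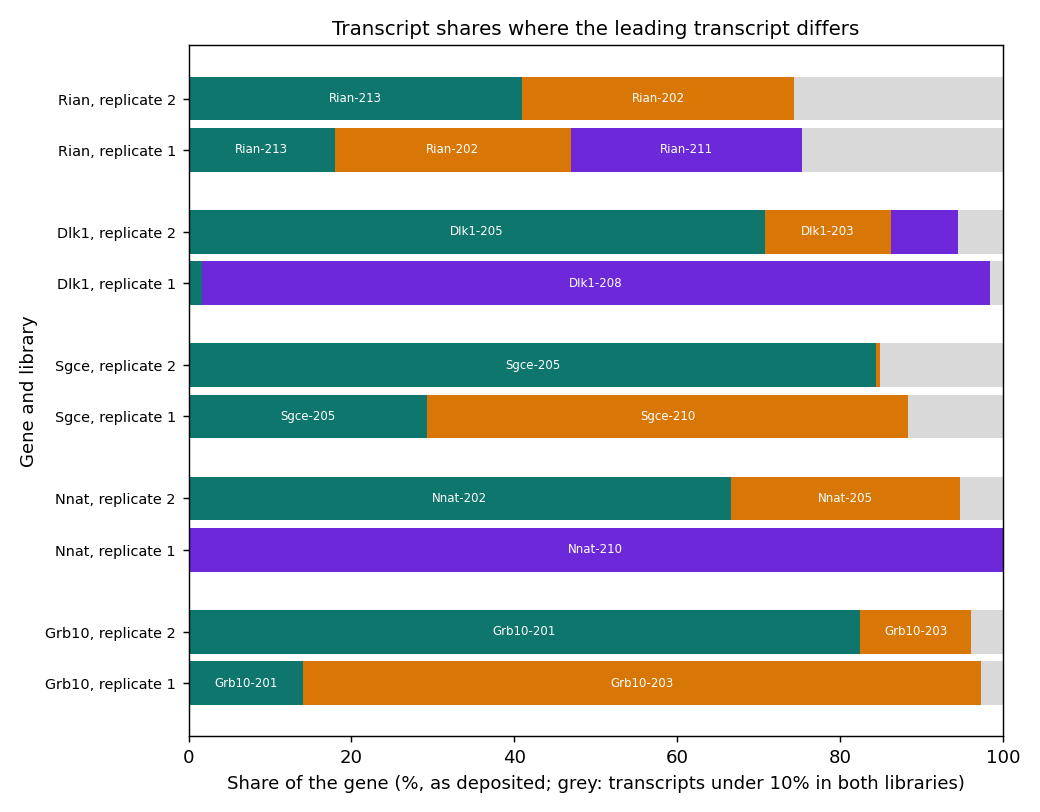
Share of each transcript in its gene's level in percent, as deposited, for the 5 imprinted genes with at least 100 counts in replicate 1 and a different leading transcript in the libraries; for each gene the upper bar is replicate 2 and the lower bar replicate 1. Dlk1-205 fills 70.8% of the bar in replicate 2 and Dlk1-208 fills 96.7% in replicate 1.

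RefSeq windows of 300 bases were found for 31 of the 39 members and for 27025 genes in all. For a member the window nearest to its leading start was taken. For all genes it was the first window listed, whether or not the gene was expressed. The shares below thus compare windows chosen by different rules. The median number of CG dinucleotides was 13 in the members and 7 in all genes, and the median ratio of observed to expected CG was 0.590 and 0.389. The upper quartile of all genes was 21, and 9 of the 31 members were at or above it, against 25.0% of all genes. Numbers ran from 0 in Rian to 48 in Ppp1r9a. The letters TGCCGC, the core bound by ZFP57 when methylated, were found on either strand in 8 members, or 25.8%, and in 11.6% of all genes. They were in the windows of Copg2, Meg3, Mest, Nap1l5, Nnat, Plagl1, Snrpn and Zim1. The letters GCCATNTT, a core of the YY1 motif, were in the windows of Mkrn3 and Ube3a, or 6.45% of members, and in 6.23% of all genes. Imprinting control regions often lie outside such windows, and no methylation was measured.

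Most of the genes listed as keepers of imprints were expressed in the adrenal. Of 20 listed, 15 were above 1 TPM in both libraries. Trim28, the corepressor recruited by ZFP57, stood at 100.6 TPM in replicate 2 and 1.53 TPM in replicate 1. Dnmt3l, a cofactor of de novo methylation in germ cells, stood at 73.1 TPM in replicate 2 and 6.83 TPM in replicate 1. Yy1, which binds several imprinted loci, stood at 39.5 TPM in replicate 2 and 32.0 TPM in replicate 1. Ehmt2, a histone methyltransferase, stood at 65.4 TPM in replicate 2 and 1.81 TPM in replicate 1. Dppa3, an oocyte and early embryo factor, had 0 counts in both libraries. Of 19 tested, 4 were higher in replicate 2 and 7 lower, beside 36.4% and 27.8% of all tested genes. With the GC trend removed 1 was higher and 4 lower, beside 13.5% and 12.7% of all.

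Of 27 further imprinted genes found, 15 were above 1 TPM in both libraries, and Gnas was above every one of the 39 members. Gnas, which encodes the G protein subunit that couples the ACTH receptor to cAMP, stood at 1428 TPM in replicate 2 and 295.2 TPM in replicate 1. Cd81, a tetraspanin at the edge of the Kcnq1ot1 domain, stood at 522.4 TPM in replicate 2 and 44.7 TPM in replicate 1. H13, a signal peptide peptidase, stood at 92.4 TPM in replicate 2 and 9.66 TPM in replicate 1. Calcr and Klf14 had 0 counts in both. Of 20 tested, 5 were higher in replicate 2 and 3 lower (36.4% and 27.8% of all tested genes), and with the GC trend removed 2 were higher and 3 lower (13.5% and 12.7% of all).

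Among 27 genes flanking the domains, 19 were above 1 TPM in both libraries. Ctsd, a lysosomal protease beside the Igf2-H19 domain, stood at 732.6 TPM in replicate 2 and 22.25 TPM in replicate 1. Pon3, a lactonase beside the Peg10-Sgce domain, stood at 122.1 TPM in replicate 2 and 72.0 TPM in replicate 1. Mas1, beside Igf2r, and Dytn, beside Zdbf2, had 0 counts in both. Of 23 tested, 7 were higher in replicate 2 and 7 lower (36.4% and 27.8% of all tested genes), and with the GC trend removed 4 were higher and 1 lower (13.5% and 12.7% of all).

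In the IGF pathway around Igf2 and Igf2r, 8 of 13 listed genes were above 1 TPM in both libraries. Igfbp5, a secreted IGF-binding protein, stood at 53.3 TPM in replicate 2 and 15.0 TPM in replicate 1. Igfbp3 stood at 52.5 TPM in replicate 2 and 15.2 TPM in replicate 1, and Igfbp4 at 57.5 TPM in replicate 2 and 4.04 TPM in replicate 1. The insulin receptor gene Insr stood at 37.6 TPM in replicate 2 and 23.0 TPM in replicate 1. All 4 were above Igf2 itself in each library. Of 11 tested, 5 were higher in replicate 2 and 2 lower (36.4% and 27.8% of all tested genes), and with the GC trend removed 3 were higher and 3 lower (13.5% and 12.7% of all).

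Markers of other cell types moved between the libraries too. All 5 skeletal muscle markers were called higher in replicate 2, where 36.4% of all tested genes were, with a summed level of 322.4 TPM in replicate 2 and 11.1 TPM in replicate 1. All 5 erythroid markers were higher, at 2973 TPM in replicate 2 and 49.25 TPM in replicate 1. Chromaffin markers summed to 4492 TPM in replicate 2 and 339.4 TPM in replicate 1, with 4 of 5 called higher and Pnmt at 0 counts in replicate 1. Adipocyte markers summed to 3060 TPM in replicate 2 and 461.8 TPM in replicate 1, with 2 of 5 called higher. With the GC trend removed, 3 of the muscle, 3 of the erythroid, 3 of the chromaffin and 4 of the adipocyte markers were called higher, beside 13.5% of all tested genes, and 1 chromaffin marker, Chgb, was called lower. Macrophage markers summed to 320.5 TPM in replicate 2 and 30.3 TPM in replicate 1, endothelial ones to 325.6 and 95.4 TPM, and stromal ones to 248.7 and 123.7 TPM. On scaled counts 3 of 5 macrophage markers were called higher and 0 lower, and 3 of 5 endothelial ones higher and 1 lower. Of 5 stromal markers 1 was higher and 1 lower, with a median log2 ratio of -0.15. With the GC trend removed, 2 macrophage, 0 endothelial and 1 stromal markers were called higher, and 0 of each type lower. Neuronal markers summed to 32.9 TPM in replicate 2 and 21.6 TPM in replicate 1, but on scaled counts 2 of the 4 tested were called lower in replicate 2 and 0 higher, with a median log2 ratio of -0.95. With the GC trend removed 3 of the 4 were called lower, at a median of -2.13. Kidney markers were at 0 except Kap, at 2 counts in each library. The part of these cells in the ratios of imprinted genes such as Ndn, Dlk1 and Nnat was not tested.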

How the data were processed

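Both libraries are technical replicates of 1 adrenal sample, per the labels. Expected counts, which are estimated fragment numbers, were deposited beside TPM. FPKM values, as deposited, served only as an alternative. Posterior mean TPM, treated as a score, and the percent share of each transcript also stand in the deposited tables. Reads were placed on mm10 with GENCODE M4, per the deposited notes on the files; which aligner and counter were used is not given in the sources used here. GENCODE M21 on GRCm38, the same assembly, gave names, coordinates and GC content, and RefSeq (GRCm38.p6) the promoter and miRNA entries.

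Counts were rounded, genes whose counts summed to under 20 were left out, and libraries were scaled with TMM (edgeR 4.0.16, R 4.3.3). With 1 library on each side the quasi-likelihood test has no residual degrees of freedom, so the test per gene was an exact binomial one, two-sided and given the gene's summed count, with Benjamini-Hochberg adjustment over all genes tested (a threshold of 0.05) and a fold of at least 2. The procedure was tested on simulated data. Log2 ratios use a prior count of 0.5. The GC trend is a lowess curve (fraction 0.3) of the log2 ratio on transcript GC content. Fold intervals are exact at 95%, and these and the floor of 3 counts cover counting error only. Copies were matches of at least 95% identity over 50% of a transcript (BLAST 2.17.0); only Igf2 had one, which has no row in the tables.

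Members, gene lists, pairs and tests were chosen with earlier results of these data known. All members are accounted for. Values per library were printed for the highest member of each domain, members with a mean of at least 10 TPM, genes of pairs and genes at 0 counts, and for up to 4 genes with the highest mean TPM of each other list and those at 0 in both libraries. Some further members were given values for completeness. Alternatives covered scaling (DESeq2 1.42.0 size factors, library totals, nuclear genes), filters, the count column, GC and length trends and thresholds.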

Additional observations from a re-analysis of the deposited data

How the results depend on the processing

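The count of 24 imprinted genes at 1 TPM or more in both libraries was between 18 and 29 at a minimum of 5 or 0.5 TPM, in FPKM, posterior mean TPM or TPM rescaled over nuclear genes, and it ranged from 24 without replicate 2 to 33 without replicate 1. The count of members higher in replicate 2 was 2 with the trend in GC, in GC and length, or in abundance-weighted GC removed, against 11, while the share of all genes called higher was 13.5%, 12.6% and 12.0%, against 36.4%. The count lower in replicate 2 was 5, 4 and 6 under these alternatives (12.7%, 12.8% and 11.5% of all genes) and 3 with library totals (3.95% of all), against 14 (27.8% of all). The median log2 ratio of -0.46 was 0.68 with library totals, which raise all genes alike and put the median of all genes at 1.24, and it lay between -0.72 and -0.09 under the other alternatives. The causes were not tested.

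Of the 35 log2 ratios, 12 changed sign with the GC trend removed, and 6 of these genes were called before or after, H19 (-0.0603), Kcnq1 (-0.18), Dlk1 (-0.0725), Rian (0.53), Nnat (-2.97) and Magel2 (-1.85). With GC and length trends removed 16 changed sign, and 9 of these were called before or after, H19 (-0.0768), Kcnq1 (-0.25), Dlk1 (-0.18), Rian (0.30), Mirg (-0.16), Zim1 (0.0237), Nnat (-3.31), Magel2 (-1.65) and Impact (0.0344). With the abundance-weighted GC trend removed 16 changed sign, and 10 of these were called before or after, Kcnq1 (-0.53), Dlk1 (-0.25), Meg3 (-1.77), Rian (0.0835), Rtl1 (-0.0655), Zim1 (0.28), Nnat (-2.26), Magel2 (-1.98), Impact (0.51) and Slc38a4 (0.0233). Library totals turned 12, and 4 of these were called before or after, Airn (1.10), Peg3 (0.0321), Ppp1r9a (0.10) and Impact (0.0718). The other sign changes were of genes called under neither, among Igf2, Airn, Meg3, Grb10, Mest, Copg2, Mkrn3, Snrpn, Sgce and Zrsr1. The log2 level ratio of Kcnq1ot1 to Kcnq1 ran from -5.82 without replicate 1 to 0.11 without replicate 2, and that of Meg3 to Dlk1 from -0.77 to 0.79. No paired analysis was possible because the study has 1 group. Members under 20 summed counts (Ascl2, Phlda2, Usp29 and Dio3) were left out of the main comparison by the filter. Without a filter, 13 members were called higher in replicate 2 (29.0% of all genes) and 13 lower (20.1% of all).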
